A study of Zea mays with 24 samples.

Results

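Sucrose is the form in which a maize plant moves most of its fixed carbon, and the genes described here make it or split it. They were found by gene symbol or synonym (sh1, sus1, ivr1, ivr2 and mn1) in the annotation of the array, together with the probe set that the study lists as sucrose phosphate synthase 1 (SPS1). Of the 6 genes named, 5 have 7 probe sets among the 17734 on the array, which are 3 for sh1 and 1 each for sus1, ivr2, mn1 and SPS1. ivr1 was not analysed here. SPS1 entered through a gene list that the study drew up on these same arrays, so its changes are not independent evidence of their direction.

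The values come from 24 Affymetrix GeneChip Maize Genome Arrays of the inbred line SKV-616, whose seedlings spent 12 days in hydroponic solution. Root and shoot were each sampled under +Fe+Zn (complete solution, the control), –Zn, –Fe and –Fe–Zn, with 3 replicates of each of the 8 groups. The paper states that RNA was isolated in triplicate and does not say whether the 3 came from different plants. All groups share the line, the age and the solution apart from the nutrient left out. Each transcript is read by a probe set, several short oligonucleotides read as 1, and its deposited value is a normalised signal on the log2 scale, on which a difference of 1 is a doubling. All arrays share a lowest value of 2.24, called the floor below, at which a transcript is not above background and a fold change is understated.

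Sucrose phosphate synthase joins a UDP-glucose to a fructose phosphate in the cytosol, mainly in leaves, and a phosphatase then releases sucrose. The sugar is carried in the phloem to growing tissues and is cleaved there by sucrose synthase, which keeps the energy of the bond in UDP-glucose, or by invertase, which hydrolyses it to glucose and fructose. sh1 and sus1 encode sucrose synthases, ivr2 encodes an invertase of the vacuole, and mn1 encodes a cell wall invertase known for its role in the developing kernel.

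By the leaf markers, the tissue named for each array held. The summed signal of 10 leaf marker genes (of 15 listed) lay between 15.13 and 16.88 on the shoot arrays and between 8.89 and 10.75 on the root arrays, on the log2 scale. Of the 10, 9 did not overlap between the tissues. The share of all probe sets without such overlap was not counted. By the test used below, 51.5% of all differed between control shoots and control roots. Of 9 listed root markers, 4 had a probe set. All 4 had a higher mean in roots, but only 1 did not overlap between the tissues. The summed signal of the 4 fell from 8.12 to 8.27 in control roots to 4.35 to 4.49 in –Fe roots. The latter is near the 4.27 to 4.30 of control shoots. In –Zn roots it was 6.29 to 6.54 and in –Fe–Zn roots 5.51 to 5.60. The Fe label was checked with fer1, a ferritin, chosen for this after its values were seen. fer1 lay between 9.23 and 10.74 on the arrays with Fe and between 6.09 and 8.44 on those without, and no gene was used to check the Zn label. All directions below follow the labels. The root –Fe–Zn arrays correlated among themselves with r between 0.95 and 0.99 across probe sets, the widest range of the 8 groups, and the spiked bacterial control BioB stood at 12.46 ± 2.29 there (SD, n = 3) against 5.40 ± 0.94 in control roots.

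Under +Fe+Zn the genes were divided between the tissues. SPS1 was 10.95, 11.19 and 10.91 in the 3 control shoots and 3.09, 2.95 and 2.24 in the 3 control roots. The root values are at or near the floor, and the groups were far apart, with a difference of 8.26 ± 0.25 (log2, SE, limma adjusted p = 7.6e-15). sus1 went the other way, at 12.30, 12.65 and 12.01 in control roots and 6.92, 7.01 and 6.99 in control shoots, which is 40.6-fold higher in the root (limma adjusted p = 8.4e-10). sh1 was likewise 4.20-fold higher in the root (limma adjusted p = 2.1e-07), whereas ivr2 was 6.10-fold higher in the shoot (limma adjusted p = 1.7e-08). In this comparison 4 of the 7 probe sets passed the test, 2 in each direction, and 51.5% of all probe sets on the array did, so the share of these probe sets is near the background. Fewer cells of a type and less RNA per cell cannot be told apart in such whole-organ samples.

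**Figure D1:**
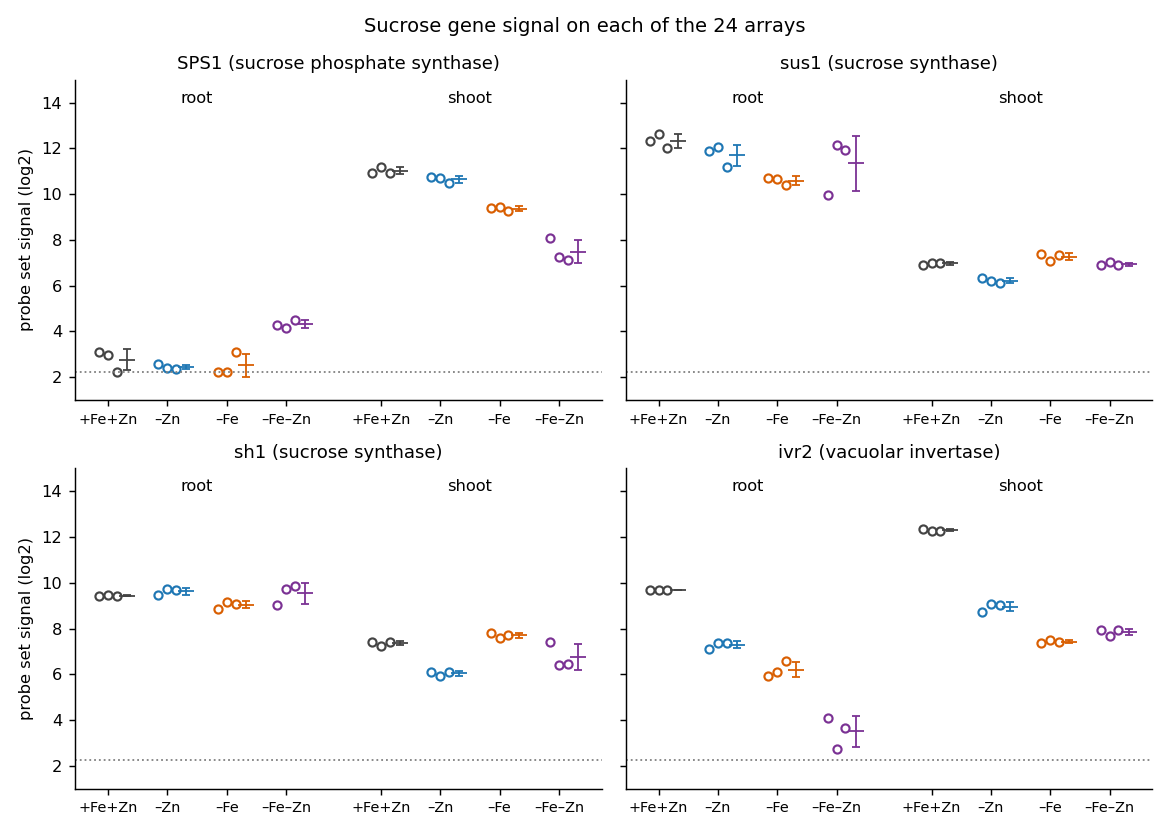
Normalised signal (log2, y axis) of the probe set that stands for each of 4 genes, in the 8 groups (x axis). Open circles are the 3 arrays of a group in the order of their replicate numbers, the bar to their right is the mean with its SD, and the dotted line is the floor of 2.24; ivr2 lies below its control on every deficient array of both tissues.

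ivr2, the vacuolar invertase, was downregulated in all 6 comparisons of a deficiency with its own control, which sus1, sh1 and SPS1 were not. In the root the 3 control arrays stood at 9.68, 9.68 and 9.68, the –Zn arrays at 7.12, 7.39 and 7.39, the –Fe arrays at 5.94, 6.11 and 6.57 and the –Fe–Zn arrays at 4.11, 2.75 and 3.67. These 4 root groups did not overlap, and the –Fe–Zn arrays approached the floor. In the shoot the control arrays stood at 12.34, 12.26 and 12.27, the –Zn arrays at 8.72, 9.08 and 9.04, the –Fe arrays at 7.39, 7.50 and 7.41 and the –Fe–Zn arrays at 7.92, 7.69 and 7.95. Every deficient shoot array lay below every control shoot array, and here –Fe, not –Fe–Zn, was lowest. The fall was 5.20-fold in the –Zn root and 10.1-fold in the –Zn shoot (limma adjusted p = 6.6e-07 and 4.1e-09, respectively). Under –Fe–Zn it was 72.2-fold in the root and 21.6-fold in the shoot (limma adjusted p = 2.1e-12 and 6.9e-11, respectively).

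ivr2 stayed downregulated in all 77 refits tried over these 6 comparisons with other scaling, filters, variance models or arrays left out, where the highest adjusted p was 0.0031. The middle probe set of cyclophilin, a control transcript, stood at 4.84 in control shoots, 2.76 in –Zn, 2.77 in –Fe–Zn and 9.18 in –Fe shoots. In the root, the same control was 9.27 in controls, 9.83 in –Zn, 9.03 in –Fe and 9.42 ± 2.58 in –Fe–Zn arrays (SD, n = 3), the last running from 6.44 to 10.98. The 3 prime probe set of cyclophilin was steadier, with group means between 13.57 and 13.76 in shoots and between 13.82 and 14.20 in roots. The spiked control dap lay between 10.02 and 10.53 in control shoots and between 10.51 and 10.66 in –Fe shoots. It lay between 5.60 and 6.79 in –Zn shoots and between 5.75 and 6.48 in –Fe–Zn shoots. In roots its means were 12.57 in controls, 9.19 in –Zn, 12.05 in –Fe and 13.21 in –Fe–Zn arrays. The summed root markers were lower in all 3 deficient roots than in control roots, as given above. The part of these signals in the ivr2 values was not tested.

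SPS1, the synthetic enzyme, was downregulated in the shoot under –Fe and further under –Fe–Zn, whereas under –Zn it did not pass the test. Against 10.95, 11.19 and 10.91 in control shoots, the –Zn arrays were at 10.77, 10.72 and 10.49, the –Fe arrays at 9.41, 9.44 and 9.25 and the –Fe–Zn arrays at 8.08, 7.26 and 7.13. The –Fe and –Fe–Zn arrays overlapped neither the controls nor each other. SPS1 was downregulated 3.14-fold under –Fe and 11.5-fold under –Fe–Zn (limma adjusted p = 4.7e-05 and 3.8e-09, respectively), whereas the –Zn difference of -0.36 (log2, 95% interval -0.90 to 0.18) did not pass the test (limma adjusted p = 0.31). The signal under –Fe–Zn was lower than under –Fe alone by 1.88 ± 0.25 (log2, SE, limma adjusted p = 8.7e-06).

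The leaf markers moved with SPS1 in part. Their summed signal was 16.72 to 16.77 in control shoots and 15.13 to 15.59 in –Fe–Zn shoots, but 15.92 to 16.18 in –Zn shoots, where SPS1 did not pass the test, and 16.80 to 16.88 in –Fe shoots, where SPS1 was downregulated. Single markers went both ways in –Fe shoots, where 6 of the 10 were lower on all arrays than in any control shoot, among them lhcb6 (mean 9.46 against 12.94), and 3 were higher, among them me1 (11.41 against 7.31). The lhcb6 value is of its brightest probe set. Another lhcb6 probe set also fell in –Fe shoots (mean 8.54 against 10.78), a dimmer one rose (8.51 against 4.47), and the last was at the floor. In –Fe–Zn shoots all 10 markers were lower on all arrays, and in –Zn shoots 9. The share of all probe sets without such overlap was not counted. By the test, 16.4% of all fell in –Fe shoots, 22.2% in –Fe–Zn shoots and 19.0% in –Zn shoots. In the same order, 17.0%, 22.4% and 20.3% rose. The part of the markers, and of the middle cyclophilin and dap controls given above, in the SPS1 values was not tested.

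In the root SPS1 stood at or near the floor in 3 of the groups and was upregulated under –Fe–Zn. The –Fe–Zn arrays were at 4.26, 4.16 and 4.52, above the –Zn arrays at 2.56, 2.39 and 2.38 and the –Fe arrays at 2.24, 2.24 and 3.09. The rise over control roots was 2.94-fold (1.56 ± 0.25 on the log2 scale, SE, limma adjusted p = 0.00013), and the –Zn and –Fe differences were -0.32 and -0.24 (log2, limma adjusted p = 0.54 and 0.72). The summed leaf markers were 10.07 to 10.25 in –Fe–Zn roots and 10.53 to 10.75 in control roots. Of the 10 leaf markers, 3 were higher on all 3 –Fe–Zn root arrays than on any control root array, among them ssu1, a Rubisco small subunit (8.21 to 8.44 against 7.13 to 7.32), and 2 were lower, among them ppdk1 (9.43 to 9.52 against 10.21 to 10.51). The share of all probe sets without such overlap was not counted, and by the test 8.09% of all rose and 20.0% fell there. The 18S rRNA control probe set was 8.95 ± 1.15 in –Fe–Zn roots and 5.18 ± 0.73 in control roots (SD, n = 3), and the part of these signals in the SPS1 value was not tested.

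sus1, a sucrose synthase, passed the test in 1 of the 6 comparisons. In –Fe roots it stood at 10.71, 10.68 and 10.38, below all 3 control roots at 12.30, 12.65 and 12.01, a 3.32-fold fall (limma adjusted p = 0.0021). The summed root markers fell in the same arrays, as given above, and their part in the sus1 value was not tested. Under –Zn the root arrays were at 11.87, 12.04 and 11.18, a difference of -0.62 (log2, 95% interval -1.43 to 0.18, limma adjusted p = 0.33).

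The –Fe–Zn roots were divided for sus1, with replicate 1 at 9.97 and replicates 2 and 3 at 12.15 and 11.93. The difference from control was -0.97 (log2, 95% interval -1.77 to -0.17, limma adjusted p = 0.069). It was -0.28 without replicate 1 (limma adjusted p = 0.35), -1.37 without replicate 2 (limma adjusted p = 0.012) and -1.26 without replicate 3 (limma adjusted p = 0.032). Replicate 1 also had the lowest middle cyclophilin signal of the 3, at 6.44 against 10.98 and 10.83, and their relation was not tested.

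In the shoot sus1 did not pass the test under any deficiency, with differences of -0.76, 0.30 and -0.04 for –Zn, –Fe and –Fe–Zn, respectively (log2, limma adjusted p = 0.14, 0.79 and 1). The –Zn arrays, at 6.33, 6.20 and 6.13, were nevertheless all below the control arrays. With all root –Fe–Zn arrays left out of the fit, a choice made after seeing the data, the pooled spread was smaller and sus1 passed the test in –Zn shoots (limma adjusted p = 0.0035) and –Zn roots (limma adjusted p = 0.019). In –Zn shoots sus1 also passed in a planned setting (lowest limma adjusted p = 0.0013), but not with any single compared array left out (limma adjusted p from 0.18 to 0.24).

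sh1, the other sucrose synthase, was downregulated in –Zn shoots, where its arrays stood at 6.09, 5.94 and 6.11 against 7.43, 7.26 and 7.41 in control shoots. The groups did not overlap, and the fall was 2.50-fold (limma adjusted p = 1e-04). Under –Fe–Zn the shoot arrays were at 7.42, 6.43 and 6.45, so that replicate 1 lay among the controls. The difference of -0.60 passed the test (log2, limma adjusted p = 0.035) but not without replicate 2 (-0.43, limma adjusted p = 0.17), without replicate 3 (-0.44, limma adjusted p = 0.16), or without control replicate 1 or 3 (limma adjusted p = 0.092 and 0.086). It was also not past it after quantile normalization (-0.33, limma adjusted p = 0.17). In –Fe shoots the difference was 0.34 (log2, 95% interval -0.13 to 0.81), and in the root the 3 differences lay between -0.39 and 0.19, none past the test (lowest limma adjusted p = 0.25). The middle cyclophilin and dap controls were also lower in –Zn and –Fe–Zn shoots than in control shoots, as given above. Their part in the sh1 values was not tested.

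These values are of the sh1 probe set with the highest mean signal. Of the other 2, 1 was at the floor on all 24 arrays and 1 on 19 of 24. The latter passed the test in –Fe–Zn shoots, where its arrays were at 2.47, 2.43 and 2.24 with the last at the floor, opposite in sign to the main probe set (0.14 on the log2 scale, limma adjusted p = 0.026), and no longer after any shoot control array was left out (limma adjusted p = 0.059). mn1 was at the floor on all 24 arrays in both tissues, so neither a level nor a change can be read for it.

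**Figure D2:**
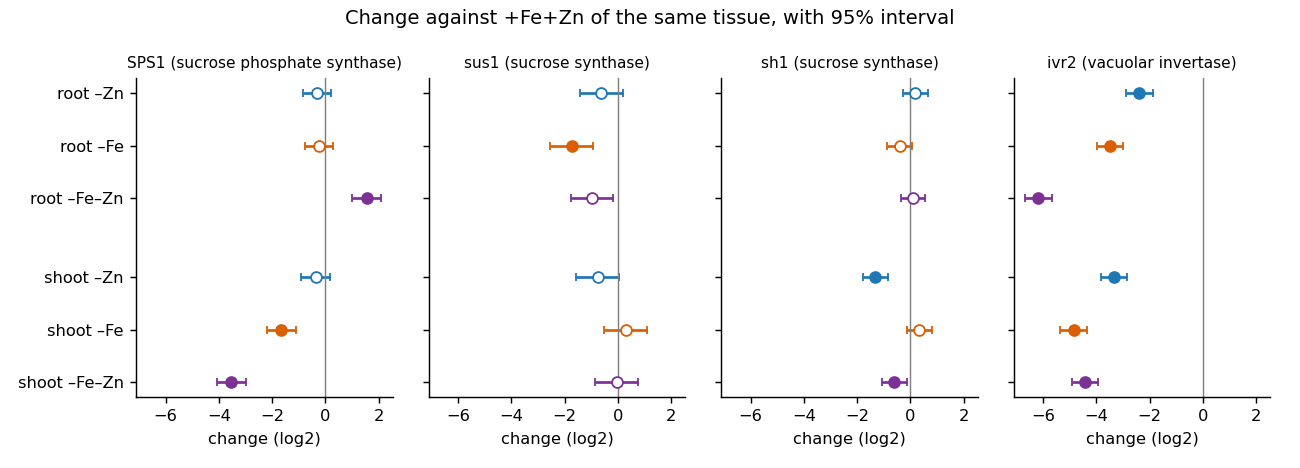
Change against +Fe+Zn of the same tissue (log2, x axis) for 4 genes under each deficiency (y axis), from the limma fit of 8 groups. Points are estimates from 3 against 3 arrays, bars are 95% intervals, and filled points have an adjusted p under 0.05; ivr2 is left of 0 in all 6 rows, and SPS1 is right of 0 in –Fe–Zn roots and left of 0 in –Fe–Zn shoots.

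Counted over the 7 probe sets, between 1 and 4 passed the test in each comparison. In the –Zn root 0 rose and 1 fell, where 13.4% of all probe sets rose and 8.46% fell. In the –Fe root 0 rose and 2 fell, where 14.7% of all rose and 10.9% fell. In the –Fe–Zn root 1 rose and 1 fell, where 8.09% of all rose and 20.0% fell. In the –Zn shoot 0 rose and 2 fell, where 20.3% of all rose and 19.0% fell. In the –Fe shoot 0 rose and 2 fell, where 17.0% of all rose and 16.4% fell. In the –Fe–Zn shoot 1 rose and 3 fell, where 22.4% of all rose and 22.2% fell. With 7 probe sets, 2 of which are at the floor on all arrays, these counts are too small to set the shares apart from the background. The median change of the 7 lay between -0.36 (–Zn shoots) and 0, and that of all probe sets was 0.00462 in –Zn shoots and 0 in the other 5 comparisons. The 3 comparisons within a tissue share their control arrays.

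The 2 x 2 design of Fe and Zn also shows whether the combined deficiency equalled the sum of the single ones. For ivr2 in the root it nearly did as measured, since the single changes sum to -5.85 and the combined change was -6.17, a difference of -0.32 (log2, 95% interval -1.01 to 0.37, limma adjusted p = 0.52). The –Fe–Zn root arrays, at 4.11, 2.75 and 3.67, approached the floor. The combined fall may thus be understated, and its match with the sum is not settled. In the shoot the sum was -8.20 and the combined change -4.44, so the combined fall was smaller than the sum by 3.76 ± 0.33 (log2, SE, limma adjusted p = 1.5e-07). The –Fe–Zn and –Fe shoots differed for ivr2 by 0.42 (log2, 95% interval -0.07 to 0.91, limma adjusted p = 0.16), that is, removal of Zn from a shoot without Fe was not seen to lower ivr2 further. In the root the same step lowered it by 2.70 ± 0.23 (log2, SE, limma adjusted p = 7.8e-08), a size that the floor may understate.

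For SPS1 the comparison with the sum can be read in the shoot. There the single changes sum to -2.01 and the combined change was -3.53, which is lower by 1.52 ± 0.36 (log2, SE, limma adjusted p = 0.0043). In the root the fit gave a difference of 2.11 (log2, limma adjusted p = 0.00015), but control, –Zn and –Fe roots are at or near the floor, where a fall cannot be measured, so the sum of the single changes there is not a measured quantity. For sus1 in the root the difference of 1.38 missed the threshold (log2, 95% interval 0.25 to 2.52, limma adjusted p = 0.055), and for sh1 it was 0.30 in the root and 0.38 in the shoot (limma adjusted p = 0.53 and 0.46). The interaction of Fe and Zn passed the test for 1 of 7 probe sets in the root, against 35.7% of all, and for 2 of 7 in the shoot, against 24.4%.

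**Figure D3:**
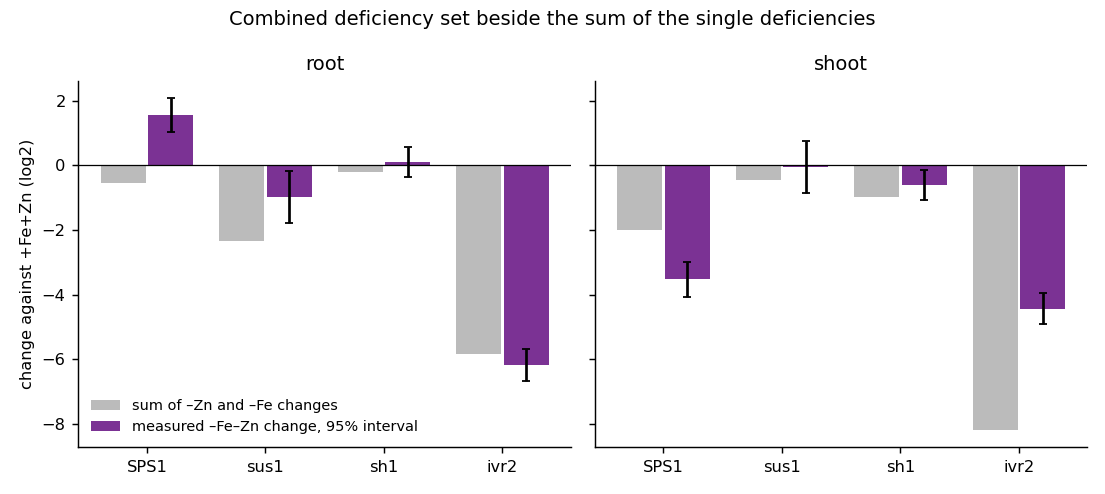
Change against +Fe+Zn of the same tissue (log2, y axis) for 4 genes (x axis), with the sum of the –Zn and –Fe changes in grey and the measured –Fe–Zn change in purple with its 95% interval. In the shoot the ivr2 bars are -8.20 and -4.44, and in the root they are -5.85 and -6.17; the SPS1 sum in the root rests on values at or near the floor. The ivr2 arrays of –Fe–Zn roots approached the floor, so their change may be understated.

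The response differed between root and shoot for several of the genes by a direct test of the difference. Under –Zn 2 of 7 probe sets (sh1 and ivr2) fell further in the shoot, against 35.2% of all with a tissue difference. Under –Fe there were 3 of 7 (sus1, ivr2 and SPS1), against 30.4%, and under –Fe–Zn 2 of 7 (ivr2 and SPS1), against 42.1%. With 7 probe sets, these shares are not set apart from the background. ivr2 fell further in the shoot than in the root under –Zn and –Fe and further in the root under –Fe–Zn.

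By level, ivr2 was ordered from control shoots (mean 12.29) over control roots (9.68), –Zn shoots (8.95), –Fe–Zn shoots (7.85), –Fe shoots (7.43), –Zn roots (7.30) and –Fe roots (6.21) to –Fe–Zn roots (3.51). In that order –Fe–Zn and –Fe shoots (limma adjusted p = 0.16) and –Fe shoots and –Zn roots (limma adjusted p = 0.88) did not differ beyond their spread. SPS1 ran from control shoots (11.02) and –Zn shoots (10.66), which were not told apart, over –Fe shoots (9.37) and –Fe–Zn shoots (7.49) to –Fe–Zn roots (4.32), and the other 3 root groups (2.76 to 2.44) were not told apart.

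sus1 and sh1 each had all 4 root groups above all 4 shoot groups. For sus1, from control roots (12.32) down to –Fe roots (10.59), no neighbours in the order differed beyond their spread, then came a step to –Fe shoots (7.27, limma adjusted p = 4.9e-07), and no neighbouring shoot groups were told apart. For sh1 neighbouring root groups (9.63 to 9.04) were likewise not told apart, and a step down to –Fe shoots came next (7.71, limma adjusted p = 4.2e-05). –Fe shoots and control shoots (7.37) did not differ (limma adjusted p = 0.32), and –Fe–Zn shoots (6.77) and –Zn shoots (6.05) followed (limma adjusted p = 0.035 and 0.026 for each step down).

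Other genes of sugar and starch metabolism were taken from a list of 37, of which 19 had a probe set (24 probe sets in all). The cell wall invertase incw1 went opposite to the vacuolar ivr2 in 5 comparisons. It rose by 0.62 in –Zn and 1.50 in –Fe roots and by 1.27, 2.10 and 0.88 in –Zn, –Fe and –Fe–Zn shoots (log2, limma adjusted p from 1.8e-07 to 0.032), and in –Fe–Zn roots its arrays lay between 5.38 and 6.57, around the 5.88 to 6.16 of control roots. Its combined change was smaller than the sum of the single ones in both tissues, by 2.15 ± 0.28 in the root and 2.48 ± 0.28 in the shoot (the fit gave -2.15 and -2.48 on the log2 scale, SE, limma adjusted p = 1e-05 and 3.6e-06).

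Next to SPS1 stands spp1, which encodes the sucrose phosphatase that releases sucrose. It was downregulated in –Zn and –Fe–Zn shoots, with changes of -1.64 and -2.96 (log2, limma adjusted p = 0.00051 and 6.8e-07). A probe set that the study lists as sucrose-phosphate synthase-like, picked on these same arrays, was 9.95 ± 0.08 in –Fe shoots against 8.95 ± 0.07 in control shoots (SD, n = 3), a rise of 1.00 where SPS1 fell by 1.65 (log2, limma adjusted p = 0.036 and 4.7e-05). In –Fe–Zn roots it was spread from 3.08 to 5.34, with a rise of 1.28 (log2, limma adjusted p = 0.01).

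Among the genes of sucrose cleavage and hexose use, the sucrose synthase sus2 fell in all 3 deficient shoots, from 4.54 in control shoots to 2.37, 3.03 and 2.30 under –Zn, –Fe and –Fe–Zn (means, log2, highest limma adjusted p = 7.8e-08), so that the –Zn and –Fe–Zn falls end near the floor and are understated. In the root it was near the floor in all groups (2.24 to 3.22), the lowest control array had the value of the –Zn arrays, and no size is read from its calls there. frk1, a fructokinase, fell in all 3 deficient shoots, with changes of -2.06 (–Zn), -0.80 (–Fe) and -2.07 (–Fe–Zn). phi1, a glucose phosphate isomerase, fell with changes of -2.83 and -2.74 in –Zn and –Fe–Zn shoots but rose by 1.18 in –Fe shoots (log2, highest limma adjusted p = 0.03). All 3 –Zn shoot arrays of phi1 held the same value of 4.465, and the –Fe–Zn shoot arrays lay between 4.09 and 4.79. The size of its –Zn fall is thus not certain. In shoots the middle cyclophilin probe set ran the same way as phi1, at 4.84 in controls, 2.76 in –Zn, 2.77 in –Fe–Zn and 9.18 in –Fe. The 3 prime probe set was steadier, and dap was low in –Zn and –Fe–Zn shoots, as given above. The part of these signals in the shoot values of phi1, frk1, spp1 and the other genes of the list was not tested. sut1, a sucrose transporter, passed the test only in –Fe shoots among the 6 comparisons, where its arrays were at 2.72 to 3.28 against 2.25 in control shoots (log2, limma adjusted p = 1.5e-05). The control value is next to the floor, so the size of the rise is not known.

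Of the starch genes, bt2 and agpsl1, which encode subunits of ADP-glucose pyrophosphorylase, fell in all 3 deficient shoots. The fall of bt2 was largest of its 3 under –Fe (-2.14) and that of agpsl1 under –Fe–Zn (-2.56, both log2, limma adjusted p = 3.9e-09 and 6e-06). zpu1, a debranching enzyme of low signal (mean 3.02 over all arrays), rose in all 3, by 0.51 to 1.01. Over the list, 1 probe set rose and 2 fell in –Zn roots, 1 and 1 in –Fe roots, 2 and 4 in –Fe–Zn roots, 3 and 8 in –Zn shoots, 6 and 5 in –Fe shoots and 2 and 7 in –Fe–Zn shoots, of 24 each. Of all probe sets, 13.4% rose and 8.46% fell in –Zn roots, 14.7% and 10.9% in –Fe roots and 8.09% and 20.0% in –Fe–Zn roots. In shoots these shares were 20.3% and 19.0% (–Zn), 17.0% and 16.4% (–Fe) and 22.4% and 22.2% (–Fe–Zn). The list's median change rounds to 0 in every one of these comparisons, as does that of all probe sets. Of the 24, 10 passed in none, and the share of all probe sets that passed in none was not counted.

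**Figure D4:**
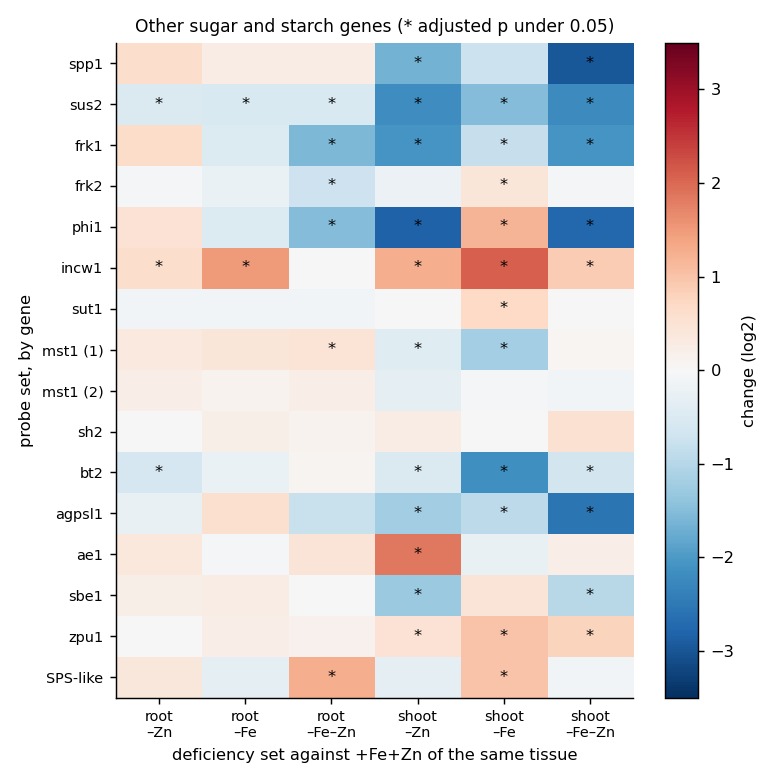
Change against +Fe+Zn of the same tissue (colour, log2) for the 16 of 24 other sugar and starch probe sets that were at the floor on fewer than 17 arrays (y axis), under each deficiency (x axis). An asterisk marks an adjusted p under 0.05; incw1 is red in all columns except –Fe–Zn roots, and sus2, blue in all 6, is near the floor in the root.

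As a description, the annotated genes whose 8 group means ran most like those of each gene were also listed, with no test, since group means share tissue and treatment. For SPS1 these were CP24, a light-harvesting protein and another name of the leaf marker lhcb6 (r = 0.99), m26 (0.99) and Amy2 (0.99). For sus1 they were expB8, a beta-expansin (0.99), the aquaporin PIP2-6 (0.99) and IIG1 (0.98), and for sh1 the ribosomal protein gene RP-P0 (0.98), uaz7c01b01 (0.98) and meg6 (0.97). ivr2 had no such close partner, with RR10 (0.90), a4Lea (0.90) and IDDveg9 (0.88) nearest. The CP24 probe set is not the brightest of lhcb6, and another probe set of that gene rose in –Fe shoots, as given above, where SPS1 fell.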

How the data were processed

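RNA of root and shoot was measured on 24 arrays. The deposited values are on the log2 scale. The paper's methods state that the authors normalised them with GCRMA, whereas RMA, affy and limma, with no version, stand in the submitters' processing notes. The background correction was thus not settled. Groups were taken from the labels given with the samples. The study's own ratios for both sucrose phosphate synthase probe sets follow another assignment of arrays to groups, and the labels were kept. That assignment takes the arrays labelled root –Fe–Zn as –Fe roots, shoot control as –Fe–Zn roots, shoot –Fe–Zn as control shoots and root –Fe as –Fe–Zn shoots, and so sets arrays of different tissue, by the leaf markers, into 1 tissue. With the arrays labelled shoot –Fe–Zn as the control, SPS1 would be higher in –Fe shoots by 1.88 and ivr2 lower by 0.42 (log2). Under the same assignment ivr2 would be higher in –Zn shoots by 1.09 and in –Fe–Zn roots by 2.61 (log2). It would stay lower in –Zn roots, –Fe roots and –Fe–Zn shoots. The fall of ivr2 in every comparison thus rests on the labels.

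All 17734 probe sets were fitted with limma 3.58.1 in R 4.3.3, as 1 model of 8 group means without filter or block, and a change was called where the p adjusted over all of them (Benjamini-Hochberg) was below 0.05. Every adjusted p is from limma, from this fit unless another setting is named beside it. The script was tested on simulated data. The precision is set by 3 arrays a group, and an exact permutation p of 3 against 3 cannot go below 0.1.

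Genes were named from the array's annotation (1452 probe sets with 1 gene, 16281 with none), and 1377 of these matched RefSeq by gene ID (assembly Zm-B73-REFERENCE-NAM-5.0), which gave synonyms. Every member and each called gene of the sugar list may be named, and the 3 most alike genes by group means. Of several probe sets, a gene is described by that with the highest mean. Members and lists were chosen with earlier results of these data known. Sequences were not used here.

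Alternatives were the study's threshold (2-fold and an unadjusted p below 0.05), the adjusted p with 2-fold, only the groups compared, median centring, quantile normalization, omission of 7094 dim probe sets (no group mean of 4.53 or more), an intensity trend with robust prior, the replicate number as a block, each array left out, and –Fe–Zn against the other tissue's control. Leaving out all root –Fe–Zn arrays was added after seeing the data for all comparisons except –Fe shoots, where it was planned.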

Additional observations from a re-analysis of the deposited data

Results flagged for a closer look

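The values here are differences between the tissues in the response to 1 deficiency, shoot change minus root change on the log2 scale, each with a limma adjusted p over all probe sets. Under –Zn, sh1 fell further in the shoot, with a difference of -1.51 (adjusted p = 0.00095) from a root change of 0.19 and a shoot change of -1.32. ivr2 also fell further in the shoot under –Zn, by a difference of -0.96 (adjusted p = 0.029). Under –Fe, ivr2 differed by -1.38 (adjusted p = 0.0033) and SPS1 by -1.41 (adjusted p = 0.0056), with the SPS1 root arrays at or near the floor. sus1 differed by 2.03 under –Fe (adjusted p = 0.0075), since it fell by 1.73 in the root and changed by 0.30 in the shoot. Under –Fe–Zn the sign for ivr2 was the other way, with 1.74 (adjusted p = 0.00031), from falls of 6.17 in the root and 4.44 in the shoot. The difference for SPS1 under –Fe–Zn was -5.09 (adjusted p = 5.1e-09), from a rise of 1.56 in the root, out of control values at or near the floor, and a fall of 3.53 in the shoot.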

How the results depend on the processing

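Of the counts of member probe sets called in the 12 contrasts, 181 refits stayed within 1.5 times the value given and 24 did not. Of the refitted member changes, 18 lost the call, 16 gained it, 3 turned and the others kept both direction and call. Without all root –Fe–Zn arrays, the count in –Zn roots was 2. In –Fe–Zn roots it was 5 after median centring, which moves the median of all probe sets by 0.25 in that comparison and the constant floor with it, and 4 against the control of the other tissue. In –Fe–Zn shoots it was 2 with the study's threshold, with the adjusted p and 2-fold, with only the groups compared and with quantile normalization, and 2 to 3 with 1 array left out, since both sh1 calls are small. The Fe by Zn interaction in the root gave 2 with the study's threshold, quantile normalization and without dim probe sets, 5 after median centring, and 1 to 2 with 1 array left out. The tissue difference under –Zn gave 1 with the study's threshold, with the adjusted p and 2-fold and with quantile normalization, and 1 to 2 with 1 array left out, and that under –Fe–Zn gave 6 after median centring. Against the control of the other tissue, which sets root against shoot by construction, sus1 (4.37) and SPS1 (-6.70) turned sign in –Fe–Zn roots and SPS1 (4.73) in –Fe–Zn shoots, on the log2 scale. Beyond what is named here, the cause of a moved count was not tested. Arrays with the same replicate number did not deviate together in every pair in any of the 6 comparisons (lowest correlation of deviations -0.12), so the numbers were not taken as pairs, and the replicate block left the counts of called probe sets at 1, 2 and 2 in –Zn, –Fe and –Fe–Zn roots and changed no other call. Changes near the floor are understated.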
